A study of Mus musculus with 4 samples.

Results

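Collagen genes were taken as every gene whose symbol has the form Col, number, a, number in the deposited tables. This gave 42 of 22072 gene symbols: 11 fibrillar, 9 network, 9 FACIT (fibril-associated collagens with interrupted triple helices) and 13 other collagens. They were followed in molar tooth mesenchyme of mouse embryos at embryonic day 13.5, cut from frozen head sections by laser capture and profiled by RNA sequencing. The mutant was Bmp4f/f;Wnt1Cre, in which floxed alleles of the signalling ligand Bmp4 are removed by a Cre driven by Wnt1 in the neural crest lineage, the source of tooth mesenchyme. The control was Bmp4f/+, with 1 floxed and 1 unmodified allele, though the series title speaks of wild type. No Cre is named in its label, so an effect of the transgene cannot be told apart from loss of Bmp4. All embryos were of a mixed background. Upper and lower molars were kept apart, giving 4 libraries, 1 for each genotype and molar. The series text describes 3 pairs of control and mutant samples that were pooled for RNA, and does not say whether upper and lower molars came from the same embryos.

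Collagens are trimers built around a triple helix of repeating glycine triplets. Fibrillar collagens assemble into the cross-banded fibrils of connective tissue, network collagens into sheets such as the basement membrane, and FACIT collagens sit on fibril surfaces. The remaining types include beaded filaments, anchoring fibrils, membrane-spanning collagens and the multiplexins of vessel and epithelial basement membranes. Dental mesenchyme at this stage condenses around the tooth bud and is not yet mineralising.

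Values are FPKM, a read count scaled to transcript length and library depth, summed over the transcripts of a gene, so levels of different genes are compared per length. Differences are on log2(FPKM + 1). Each group is 1 library and has no SD. The depth was about 4820000 to 5550000 reads on transcripts per library. Bmp4 itself had 24.8 (upper) and 27.2 FPKM (lower) in controls, against 4.75 and 4.90 FPKM in mutants. All 9 markers of molar mesenchyme that were looked up, among them Msx1, Pax9 and Barx1, were above 10 FPKM in every library. The tests took genes whose mean reached 1 FPKM, which were 21 of the 42 collagens and 10502 genes in all. These 21 were 8 of the 11 fibrillar, 5 of the 9 network, 2 of the 9 FACIT and 6 of the 13 other genes.

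Within the 42 genes, the collagen message was mostly that of type I and type III. Col1a1, Col1a2 and Col3a1 together made up 54.4% (upper) and 59.4% (lower) of collagen FPKM in controls, against 60.5% and 63.5% in mutants. Col1a1 ranked 150 of the 22072 symbols by mean FPKM, Col1a2 171 and Col3a1 194. The summed FPKM of the 42 genes was 478 (upper) and 591 (lower) in controls, against 511 (upper) and 675 (lower) in mutants. The lower molar thus had the larger sum in each genotype, as did the mutant in each molar. Collagen reads were 0.708% (upper) and 0.884% (lower) of reads on transcripts in controls, against 0.761% and 1.04% in mutants.

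**Figure D1:**
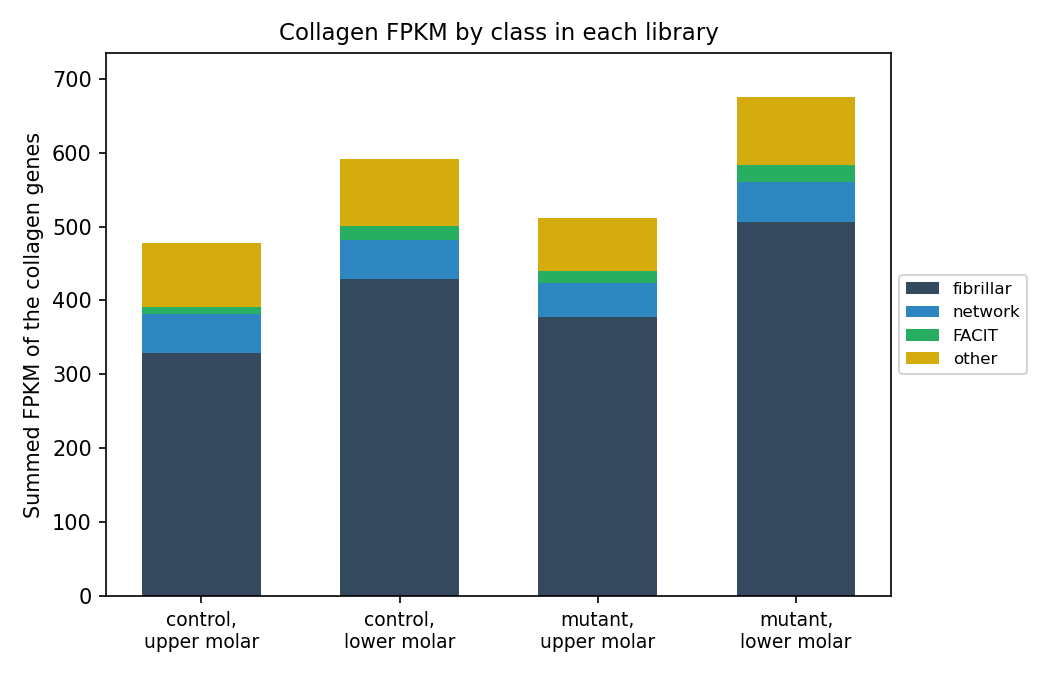
Summed FPKM of the collagen genes (vertical axis) in each of the 4 libraries, stacked by class. The fibrillar part runs from 328 FPKM in the control upper molar to 506 FPKM in the mutant lower molar, while the network part stays between 45.9 and 54.5 FPKM.

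Each member was compared between mutant and control and between lower and upper molar. limma, fitted to all 10502 genes with genotype and molar as additive terms, called 0 of the 21 tested collagens for genotype at an adjusted p under 0.05, where 0.8% of all genes were called. For molar it also called 0 of 21, where 0.724% of all genes were called. At an unadjusted p under 0.05, 9 of the 21 passed for genotype (13.2% of all genes) and 11 of the 21 for molar (10.2% of all genes). Of these 9, 6 were higher in the mutant (6.68% of all genes) and 3 lower (6.51%). Of these 11, 10 were higher in the lower molar (4.11% of all genes) and 1 lower (6.12%). The fit has 1 residual degree of freedom, to which limma adds a variance estimated over all tested genes, weighted as 5.77 degrees of freedom. The SE and p-values thus rest mainly on that shared variance. A gene's own part is its disagreement between molars or genotypes, and neither part measures the spread between embryos. Fits that left out 1 library, which have no term for the other factor, gave fewer members with an unadjusted p under 0.05. For genotype, 0 passed once the upper molar of the control was omitted and 3 once its lower molar was, 3 once the upper molar of the mutant was omitted and 6 once its lower molar was. The counts for molar were 5, 7, 6 and 3 in the same order.

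**Figure D2:**
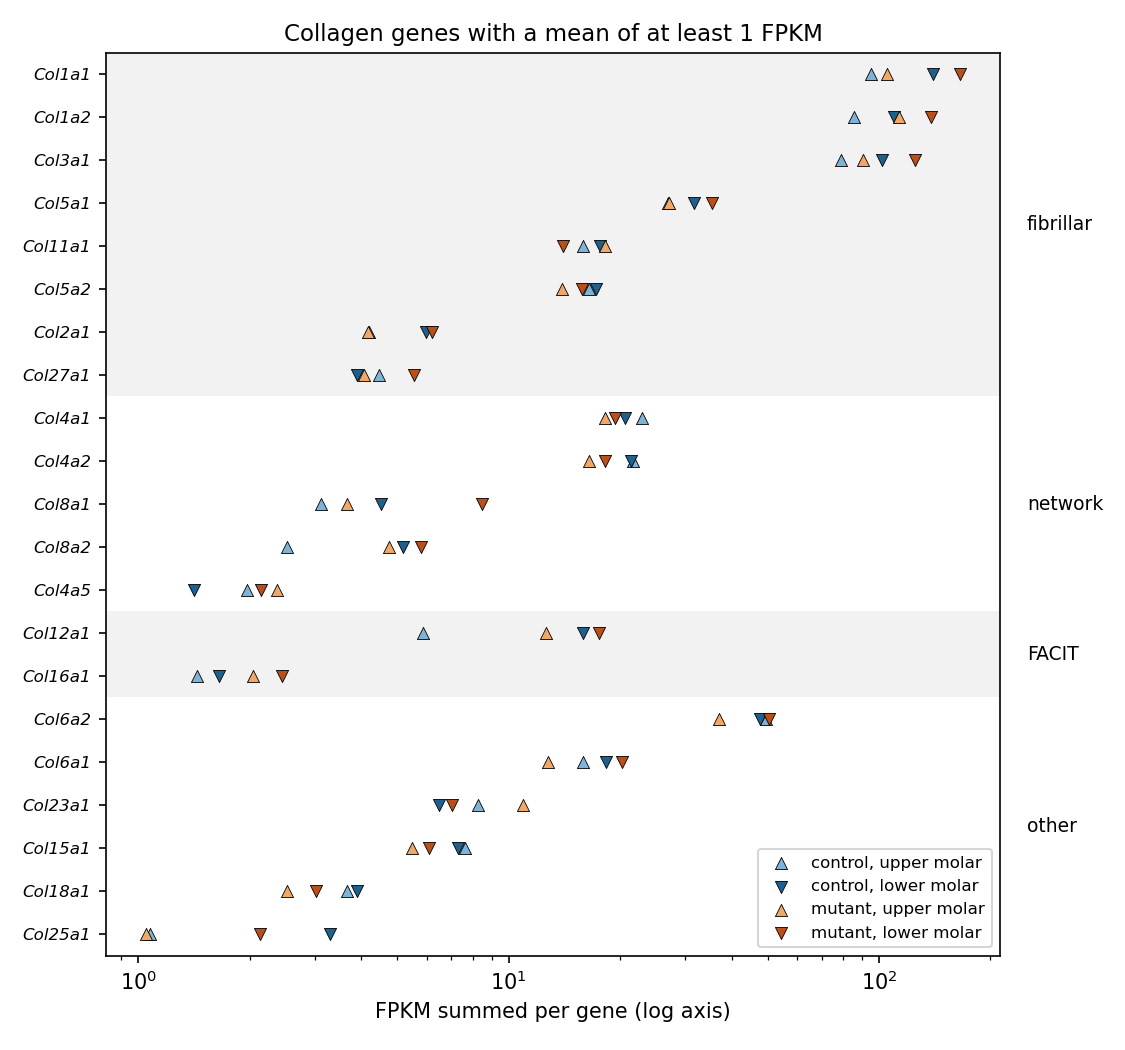
FPKM (horizontal log axis) of the 21 tested collagen genes in the 4 libraries, grouped by class. Up and down triangles stand for upper and lower molars, blue for controls and orange for mutants, and for Col1a1 both lower molars lie right of both upper molars.

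Among fibrillar collagens, the chains of type I, the main structural collagen of skin, bone and dentin, were the most abundant. Col1a1 (chromosome 11, 94797584 to 94813170, mm9) had 95.3 FPKM (upper) and 140 (lower) in controls, against 105 (upper) and 165 (lower) in mutants. Both lower molars were above both upper molars. The difference of lower minus upper molar was 0.60 ± 0.10 on the log2 scale (SE, 2 libraries per molar, limma adjusted p = 0.068), and limma called it when genes under a mean of 5 FPKM were left out (adjusted p = 0.015). For genotype the difference was 0.19 ± 0.10 (limma adjusted p = 0.48) and the groups overlapped.

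Col1a2, which encodes the partner chain (chromosome 6, 4455697 to 4491543), stood at 85.5, 110, 113 and 138 FPKM in the control upper, control lower, mutant upper and mutant lower molar. Here both mutants were above both controls. The mutant minus control difference was 0.37 ± 0.10 (log2, SE, limma adjusted p = 0.21), and the lower minus upper difference was 0.32 ± 0.10 (limma adjusted p = 0.32). These were 0.19 and 0.12 without the control upper library, and 0.22 and 0.15 without the mutant lower library. Fits without 1 library, here and below, have no term for the other factor. A molar difference thus enters their genotype value, and a genotype difference their molar value. Compared within a molar, mutant minus control was 0.40 (upper) and 0.33 (lower), and lower minus upper was 0.36 in controls and 0.29 in mutants. The ratio of Col1a1 to Col1a2 FPKM was lowest in the upper molar of the mutant (0.929) and highest in the lower molar of the control (1.28).

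Col3a1, a homotrimeric fibrillar collagen of soft connective tissue (chromosome 1, 45368383 to 45406551), had 78.9, 102, 90.6 and 125 FPKM in the same order. It followed the pattern of Col1a1, with both lower molars above both upper molars. Its lower minus upper difference was 0.41 ± 0.10 and its mutant minus control difference 0.25 ± 0.10 (log2, SE, limma adjusted p = 0.20 and 0.37). Without the mutant lower library these were 0.26 and 0.0165, and the genotype difference was 0.065 without the control upper library. Compared within a molar, mutant minus control was 0.20 (upper) and 0.29 (lower), so the smaller leave-out values partly reflect the molar difference.

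Promoters are shown for Col1a2 and Col3a1 as examples with similar levels and higher values in the mutant and in the lower molar. Col1a1 also had higher values in both, and its promoter is not shown. The RefSeq table (GRCm38.p6) held promoters for 34 of the 42 collagen genes, 37 in all. Each sequence is the 150 bases before the annotated start, 5′ to 3′, and capitals mark promoter motifs searched on both strands. The CCAAT box was searched by the letters of its name. The TATA box was searched as TATAAA, and the GC box, bound by Sp1-type factors, as GGGCGG. No motifs overlap in the sequences shown.
Col1a2 (chr6:4505468-4505617, plus strand): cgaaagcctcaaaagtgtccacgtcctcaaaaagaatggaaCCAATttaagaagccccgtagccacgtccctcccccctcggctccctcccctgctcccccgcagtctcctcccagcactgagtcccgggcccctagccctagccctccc
Col3a1 (chr1:45311388-45311537, plus strand): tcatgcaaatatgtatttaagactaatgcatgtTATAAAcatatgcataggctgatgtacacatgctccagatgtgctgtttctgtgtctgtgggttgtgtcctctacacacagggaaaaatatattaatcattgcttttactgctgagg
In these letters Col1a2 has 1 match to the CCAAT box, 109 bases before the start. Col3a1 has 1 match to the TATA box letters, 117 bases before the start. The search took matches at any position, so a match is not placed as a working element. In the 250 bases before the start, a CCAAT box was in 13 of 37 collagen promoters (35.1%, against 33.9% of all 32851 promoters), a TATA box in 5 (13.5% against 12.4%) and a GC box in 22 (59.5% against 32.7%). These shares describe the sequences, and a match is not a site of binding.

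The minor fibrillar collagens, which co-assemble with type I and type II and help set fibril diameter, were next in level. Col5a1 had 26.9 (upper) and 31.7 FPKM (lower) in controls, against 27.1 and 35.4 FPKM in mutants. Its lower minus upper difference was 0.30 ± 0.11 (log2, SE, limma adjusted p = 0.40). Its partner Col5a2 had 16.4 and 17.2 FPKM in controls, against 13.9 and 15.8 FPKM in mutants, with both mutants below both controls. That difference was -0.17 ± 0.11 (limma adjusted p = 0.55). The ratio of Col5a1 to Col5a2 was lowest in the upper molar of the control (1.64) and highest in the lower molar of the mutant (2.24). Col11a1, an alpha chain of cartilage fibrils that also occurs outside cartilage, had 15.8, 17.6, 18.2 and 14.0 FPKM in the control upper, control lower, mutant upper and mutant lower molar. It had a mutant minus control difference of 0.19 (upper molar) and -0.31 (lower molar) on the log2 scale, and whether these differ was not tested. Col27a1 lay between 3.89 and 5.54 FPKM. Col24a1 (0.559 to 0.963 FPKM), Col11a2 and Col5a3 were under the mean of 1 FPKM. Col11a2 had 0.157 and 0.113 FPKM in the controls, about 11.5 and 8.3 reads, and about 1.7 reads in each mutant. Col5a3 was at 0 in both mutants and had at most 4.4 reads in the controls.

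Col2a1 is the main fibrillar collagen of cartilage and is also made by some non-cartilage cells of the embryo. It had 4.20 (upper) and 5.96 FPKM (lower) in controls, against 4.17 and 6.23 FPKM in mutants. Both lower molars were above both upper molars: lower minus upper was 0.45 ± 0.11 and mutant minus control 0.02 ± 0.11 (log2, SE, limma adjusted p = 0.19 and 0.95). Counting the more abundant of its transcripts alone took the molar difference to 0.21. Of the cartilage markers, Acan and Matn1 were at or under 0.051 FPKM in every library and Matn1 was at 0 in 3 of 4. Hapln1, a cartilage link protein, had 0.990 (upper) and 1.20 FPKM (lower) in controls, against 0.739 and 0.971 FPKM in mutants, and so was higher in the lower molar in both genotypes, as Col2a1 was. The 9 cartilage markers summed to 19.2 (upper) and 10.8 FPKM (lower) in controls, against 9.72 and 4.37 FPKM in mutants, mostly from Sox9 and Sox6, the first called by limma as lower in the mutant (adjusted p = 0.015) and the second as lower in the lower molar (adjusted p = 0.022). The part of cartilage cells in the Col2a1 values was not tested.

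The tables list Col2a1 as 2 transcripts that differ by exon 2, which encodes a cysteine-rich domain of the amino propeptide. The form that keeps this exon is known from cartilage precursors and non-cartilage sites, and the form that skips it from mature cartilage. The exon is shown because the deposited split between libraries turns on it (chr15:98000403-98000606, GENCODE annotation of GRCm38, minus strand, exon 2 of 54, 204 bases, coding).
Col2a1 exon 2: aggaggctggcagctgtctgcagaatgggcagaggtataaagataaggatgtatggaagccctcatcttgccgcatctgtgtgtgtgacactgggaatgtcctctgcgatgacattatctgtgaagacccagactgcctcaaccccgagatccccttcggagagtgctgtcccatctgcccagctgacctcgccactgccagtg
The shorter transcript without the exon (4929 bases) had 4.20 (upper) and 4.63 FPKM (lower) in controls, against 4.17 and 5.39 FPKM in mutants. The longer transcript (5133 bases) had 1.33 FPKM (control) and 0.834 FPKM (mutant) in the lower molars. For the upper molars it was listed at 6.54e-06 FPKM (control) and 5.77e-06 FPKM (mutant), far under the value of 1 read. The longer form was thus listed above the value of 1 read in both lower and in neither upper molar. The split between transcripts is an estimate from reads that both share, with no confidence limits in the tables, so it shows where reads were assigned and not a measured junction.

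**Figure D3:**
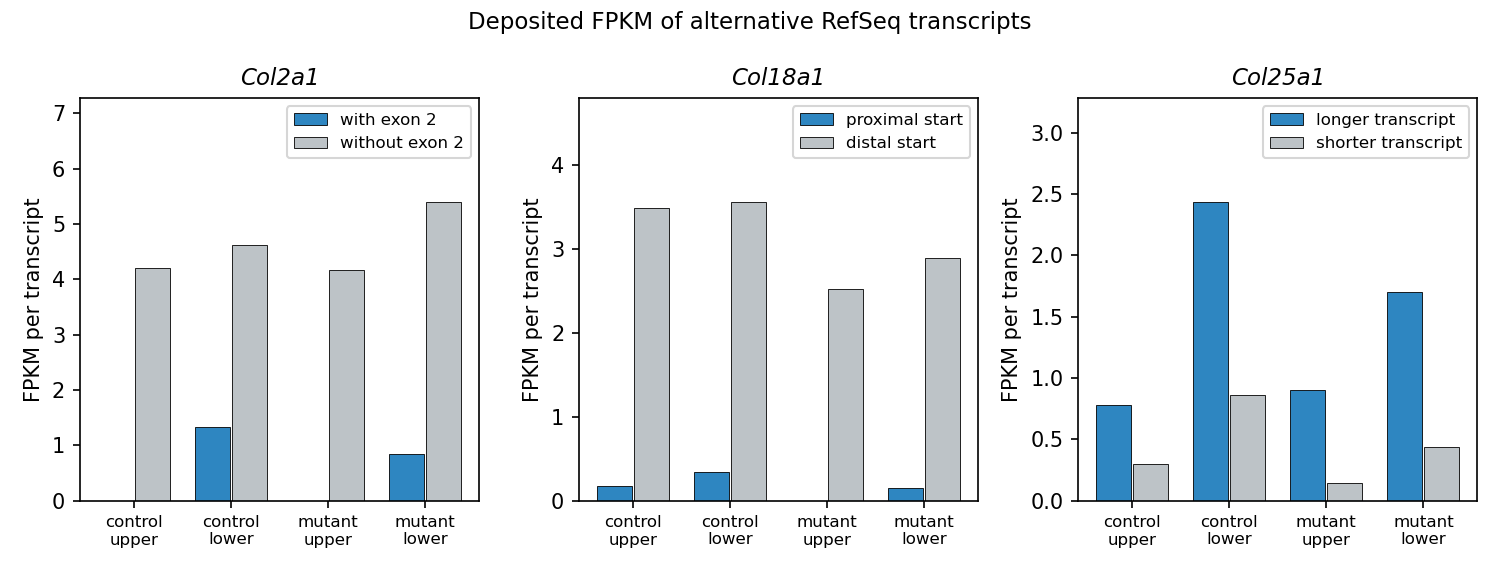
Deposited FPKM (vertical axis) of alternative transcripts of Col2a1, Col18a1 and Col25a1 in the 4 libraries, 1 bar per transcript and library. The Col2a1 transcript with exon 2 stands at 1.33 and 0.834 FPKM in the lower molars and has no visible bar in the upper molars.

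Network collagens did not share a direction. Col4a1 and Col4a2 encode the ubiquitous chains of type IV collagen, the scaffold of basement membranes, and are transcribed head to head: their loci on chromosome 8 (11198423 to 11312826 and 11312829 to 11449287, mm9) are 2 bases apart. Col4a1 had 22.8 (upper) and 20.6 FPKM (lower) in controls, against 18.1 and 19.4 FPKM in mutants. Col4a2 had 21.7 and 21.3 FPKM in controls, against 16.5 and 18.2 FPKM in mutants. For both genes the mutants were below the controls without overlap, and their ratio stayed between 0.966 and 1.10. The mutant minus control difference was -0.20 ± 0.11 for Col4a1 and -0.30 ± 0.11 for Col4a2 (log2, SE, limma adjusted p = 0.51 and 0.33). Col4a5, an X-linked chain of more restricted membranes, went the other way, at 1.96 and 1.41 FPKM in controls, against 2.37 and 2.14 FPKM in mutants. Col4a3 and Col4a4 had at most about 1.4 reads in any library and Col4a6 at most 0.393 FPKM.

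The multiplexins Col15a1 and Col18a1, which sit in vessel and epithelial basement membranes, had the same direction as Col4a1 and Col4a2. Col15a1 had 7.61 (upper) and 7.31 FPKM (lower) in controls, against 5.47 and 6.11 FPKM in mutants. Col18a1 had 3.65 and 3.88 FPKM in controls, against 2.52 and 3.03 FPKM in mutants. Neither gene's genotypes overlapped, with differences of -0.32 ± 0.11 and -0.34 ± 0.12 (log2, SE, limma adjusted p = 0.32 and 0.31). Of the 21 tested collagens, 5 had both mutants below both controls (Col4a1, Col4a2, Col15a1, Col18a1 and Col5a2), which 23.1% of all genes did. Another 3 had both mutants above both controls (Col1a2, Col4a5 and Col16a1), which 18.4% of all genes did. Both shares are near the background.

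Vessel markers were looked up because type IV collagen and the multiplexins are made around vessels. limma called 0 of 8 endothelial markers for genotype. In the upper molar all 8 had lower values in the mutant, and in the lower molar 5 of 8 did, with Tie1, Emcn and Esam slightly higher. Their summed FPKM was 44.9 (upper) and 41.8 (lower) in controls, against 32.6 and 37.9 in mutants. Pericyte markers summed to 58.5 and 54.6 FPKM in controls, against 38.1 and 35.1 FPKM in mutants, and 3 of 4 tested had lower values in each molar, with Pdgfrb higher in both. Among them limma called Rgs5, a pericyte signalling regulator, which had 31.9 and 25.1 FPKM in controls, against 9.03 and 9.48 FPKM in mutants (adjusted p = 0.011). Most of the difference between the pericyte sums lay in Rgs5, so these sums do not describe a fall shared by all pericyte markers. Under the filter, Kcnj8 had 0.391 (upper) and 1.29 FPKM (lower) in controls, against 0.062 and 0.196 FPKM in mutants. Abcc9 had 0.973 and 1.09 FPKM in controls, against 0.467 and 0.484 FPKM in mutants. Of the listed pericyte markers, only Pdgfrb was not lower in the mutant in each molar. The part of vessel cells in the collagen values was not tested, and in such bulk tissue fewer cells of a type and less RNA per cell cannot be told apart.

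Col18a1 starts at 2 promoters, and the tables assign nearly all of its message to the distal one. The transcript from the distal start had 3.48 (upper) and 3.55 FPKM (lower) in controls, against 2.52 and 2.88 FPKM in mutants. The transcript from the proximal start had 0.167 (upper) and 0.335 FPKM (lower) in controls, against 1.14e-06 and 0.145 FPKM in mutants. The starts are 52825 bases apart both in the deposited loci and in RefSeq, which ties each promoter to its transcript. Both are printed to set the used against the little used start, as 150 bases before each with capitals for the same motifs.
Col18a1 distal (chr10:77166531-77166680, minus strand, GRCm38.p6): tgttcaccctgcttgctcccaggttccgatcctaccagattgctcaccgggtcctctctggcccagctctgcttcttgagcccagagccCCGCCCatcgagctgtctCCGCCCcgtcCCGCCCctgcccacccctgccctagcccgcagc
Col18a1 proximal (chr10:77113706-77113855, minus strand, GRCm38.p6): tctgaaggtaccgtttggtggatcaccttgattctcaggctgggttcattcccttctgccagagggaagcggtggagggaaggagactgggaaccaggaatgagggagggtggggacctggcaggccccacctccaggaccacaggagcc
The distal sequence holds 3 GC boxes, 33, 43 and 61 bases before the start. The proximal sequence holds none of the 3 motifs.

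The short-chain network collagens of type VIII, found in vessel walls and in the membrane beneath corneal endothelium, had higher values in the mutant and in the lower molar. Col8a1 had 3.11, 4.52, 3.67 and 8.49 FPKM in the control upper, control lower, mutant upper and mutant lower molar. The mutant lower molar stood apart. Mutant minus control was 0.48 ± 0.16 and lower minus upper 0.73 ± 0.16 (log2, SE, limma adjusted p = 0.28 and 0.15). Without the mutant lower library, and with no term for the other factor, these differences were -0.03 and 0.33. Compared within a molar, mutant minus control was 0.18 (upper) and 0.78 (lower). Col8a2 had 2.51, 5.18, 4.75 and 5.79 FPKM in the same order, with the control upper molar as the low library. Its differences were 0.42 ± 0.16 for genotype and 0.53 ± 0.16 for molar (limma adjusted p = 0.34 and 0.29). Without the control upper library, again with no term for the other factor, they were 0.015 and 0.17. Compared within a molar, mutant minus control was 0.71 (upper) and 0.14 (lower). Col10a1, the collagen of hypertrophic cartilage, had between 0.139 and 0.186 FPKM, about 6.5 to 7.6 reads.

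**Figure D4:**
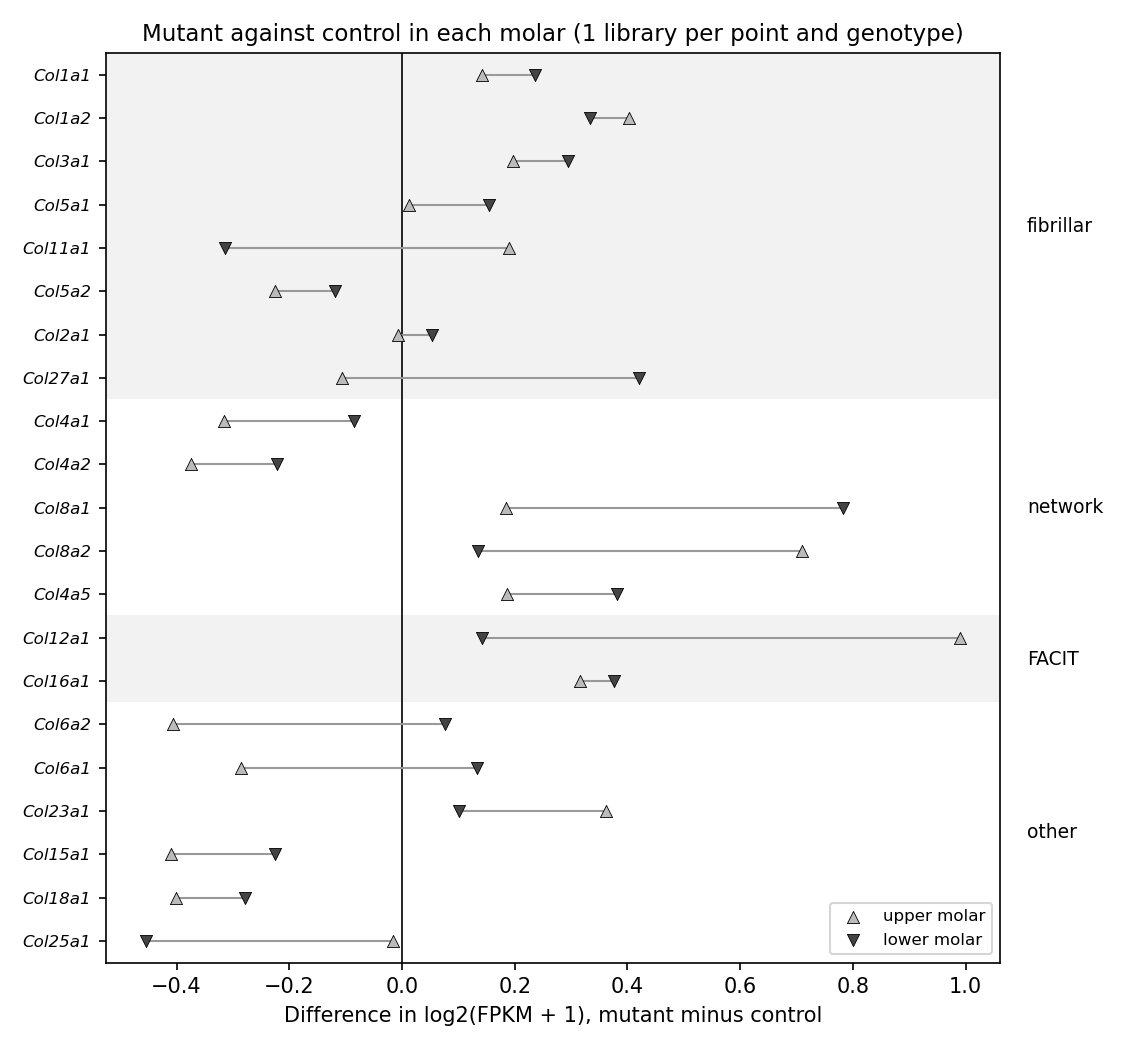
Mutant minus control difference in log2(FPKM + 1) (horizontal axis) of the 21 tested collagen genes in the upper (up triangle) and lower molar (down triangle), grouped by class. Col4a1, Col4a2, Col15a1 and Col18a1 lie left of 0 in both molars, and Col12a1 reaches 0.99 in the upper but 0.14 in the lower molar.

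Of the FACIT collagens, Col12a1 was the most abundant. It encodes type XII collagen, which binds type I fibrils in dense connective tissue. Col12a1 (chromosome 9, 79446798 to 79566485, mm9) had 5.87 FPKM (upper) and 15.8 (lower) in controls, against 12.6 (upper) and 17.6 (lower) in mutants. The control upper molar was low against the other libraries. Lower minus upper was 0.87 ± 0.19 (log2, SE, limma adjusted p = 0.15), a difference called when genes under a mean of 5 FPKM were left out (adjusted p = 0.012). Mutant minus control was 0.57 ± 0.19 (limma adjusted p = 0.31). Without the control upper library, and with no term for the other factor, these differences were 0.38 for molar and -0.08 for genotype. Compared within a molar, mutant minus control was 0.99 (upper) and 0.14 (lower). In the upper molar the mutant to control ratio was 2.15, and the control lower to upper ratio was 2.70.

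Col16a1 had 1.44 (upper) and 1.65 FPKM (lower) in controls, against 2.04 and 2.44 FPKM in mutants, both mutants above both controls (0.35 ± 0.14, log2, SE, limma adjusted p = 0.36). Col14a1, the FACIT most related to Col12a1, was under the filter but split sharply by molar. It had 0.070 FPKM (upper) and 0.711 (lower) in controls, against 0.102 (upper) and 1.32 (lower) in mutants, or about 5.9, 59.8, 9.8 and 119.6 reads. The lower to upper ratio was 10.2 in the controls and 12.9 in the mutants. Type IX chains, which coat cartilage fibrils, were weak. Col9a1 had 0.890 (upper) and 0.190 FPKM (lower) in controls, against 0.236 and 0.025 FPKM in mutants, about 45.3 reads at most. All 3 type IX genes (Col9a1, Col9a2 and Col9a3) were lower in the lower molar in both genotypes, the direction opposite to Col2a1. Like the summed cartilage markers, Col9a1 was highest in the control upper and lowest in the mutant lower molar, the latter with about 1.4 reads. Col9a2 and Col9a3 did not have this order, as both were lowest in the control lower molar (0.088 and 0.442 FPKM). The part of cartilage cells in the type IX values was likewise not tested. Col19a1, Col20a1 and Col22a1 had at most about 7.7 reads in any library.

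Type VI collagen forms beaded filaments around cells. Col6a2 had 49.4 (upper) and 47.8 FPKM (lower) in controls, against 37.0 and 50.5 FPKM in mutants, so the mutant upper molar was low. Col6a1 had 15.8 and 18.3 FPKM in controls, against 12.8 and 20.2 FPKM in mutants, again lowest in the mutant upper molar. Col6a2 FPKM was between 2.50 and 3.12 times that of Col6a1. Lower minus upper was 0.20 ± 0.14 for Col6a2 and 0.41 ± 0.13 for Col6a1 (log2, SE, limma adjusted p = 0.72 and 0.34), and the latter was 0.27 without the mutant upper library. Col6a6 lay between 0.247 and 0.689 FPKM, and Col6a4 and Col6a5 had at most about 3.7 reads. Col6a3 is not among the 42 symbols and was not analysed here.

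Of the 4 membrane-spanning collagens, whose ectodomains can be shed, 2 were tested and 0 called. Col25a1 (chromosome 3, 129883796 to 130299335, mm9) had 1.07 (upper) and 3.29 FPKM (lower) in controls, against 1.05 and 2.13 FPKM in mutants, with both lower molars above both upper molars (0.83 ± 0.16, log2, SE, limma adjusted p = 0.11). Its longer transcript carried more FPKM than the shorter one in every library. Col13a1 was under the filter with the same order, at 0.416 and 1.52 FPKM in controls, against 0.233 and 1.02 FPKM in mutants. Col23a1 had the opposite order, at 8.29 and 6.50 FPKM in controls, against 10.9 and 7.04 FPKM in mutants (-0.44 ± 0.12, limma adjusted p = 0.25, and -0.26 without the mutant upper library). Of the 21 tested genes it was the 1 with both lower molars below both upper molars, which 21.2% of all genes had.

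Collagens of epithelial attachment were under the mean of 1 FPKM. Col17a1, a hemidesmosome component, had between 0.016 and 0.370 FPKM, about 1.3 to 26.2 reads. Col7a1, of anchoring fibrils, had 0.248 (upper) and 0.466 FPKM (lower) in controls, against 0.311 and 1.12 FPKM in mutants. The 8 epithelial markers summed to 11.2 and 16.1 FPKM in controls, against 13.3 and 15.5 FPKM in mutants, with Cdh1 at most 0.148 FPKM. Krt5 (4.99 to 7.75 FPKM), Krt14 (1.58 to 3.91) and Trp63 (1.30 to 2.56) carried most of the sum. Krt5 and Krt14 had higher values in the lower molar in both genotypes, as Col7a1 did (limma adjusted p = 0.42 and 0.35 for molar). The other epithelial markers did not share this. Krt18 was lower in the lower molar in both genotypes, and Trp63, Krt8, Krt15, Cdh1 and Epcam differed in direction between genotypes. The part of epithelial cells in the Col7a1 and Col17a1 values was not tested. Col28a1 had at most about 3.6 reads.

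Across classes, 9 of the 21 tested collagens had both lower molars above both upper molars, against 12.2% of all genes. They were Col1a1, Col3a1, Col5a1, Col2a1, Col8a1, Col8a2, Col12a1, Col6a1 and Col25a1. The median lower minus upper difference of the 21 was 0.15 in controls and 0.29 in mutants, where the median of all genes tested was -0.0038 and -0.07. For the 8 fibrillar genes these medians were 0.29 and 0.37. On the log2(FPKM + 1) scale, 2 of 21 were at least 2-fold apart between molars in controls (Col12a1 and Col25a1, 0.971% of all genes). In mutants this held for 1 of 21 (Col8a1, 1.28% of all genes). By the ratio of FPKM itself, Col8a2 in controls (2.06) and Col25a1 in mutants (2.03) were also more than 2-fold apart. For genotype the median of the 21 was 0.012 (upper molar) and 0.13 (lower molar), against 0.015 and -0.05 for all genes. Differences above 0 for genotype were seen for 11 of 21 in the upper molar (53.1% of all genes) and 14 of 21 in the lower molar (41.6%). Differences above 0 for molar were seen for 14 of 21 in controls (49.1%) and 18 of 21 in mutants (36.6%). No collagen reached a 2-fold difference between genotypes on the log2(FPKM + 1) scale in the upper molar (1.01% of all genes) or the lower molar (1.1%). The comparisons within a molar or a genotype share libraries with each other and have no test.

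**Figure D5:**
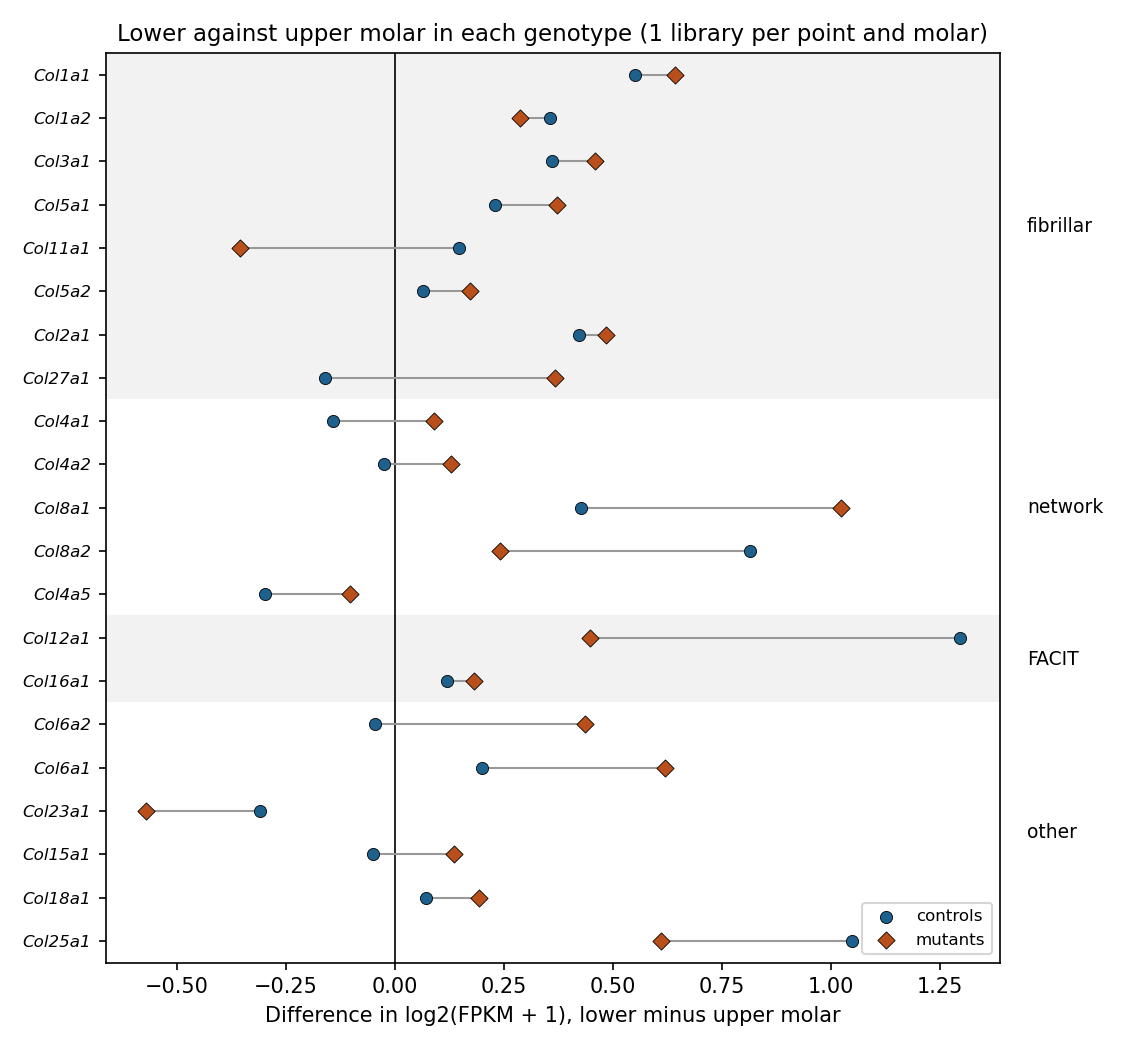
Lower minus upper molar difference in log2(FPKM + 1) (horizontal axis) of the 21 tested collagen genes in controls (circles) and mutants (diamonds), grouped by class. For 13 of the 21 both points lie right of 0, and Col23a1 and Col4a5 lie left of 0 in both genotypes.

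Genes that modify, export, cleave, cross-link or bind collagen were examined as 5 lists. All 45 listed genes were found, 36 were tested, and limma called 0 for genotype and 0 for molar. At an unadjusted p under 0.05, 7 were higher and 2 lower in the mutant (6.68% and 6.51% of all genes), and 5 were higher and 0 lower in the lower molar (4.11% and 6.12% of all genes). Of the 14 tested genes for hydroxylation and glycosylation, 3 were among the 7 and 1 among the 2. The prolyl hydroxylase subunit P4hb was at 57.8, 60.7, 59.4 and 53.2 FPKM in the control upper, control lower, mutant upper and mutant lower molar, and the isomerase Ppib was at 29.5 to 36.9 FPKM. Of the 9 chaperone and export genes, 3 were among the 7. The collagen chaperone Serpinh1 was at 66.3 to 75.2 FPKM, while Sparc, a collagen-binding matrix protein, had 87.0 (upper) and 125 FPKM (lower) in controls, against 79.3 and 158 FPKM in mutants. Lower minus upper for Sparc was 0.75 (log2, limma adjusted p = 0.082).

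Lox, the lysyl oxidase that starts collagen cross-linking, had 1.58 FPKM (upper) and 5.37 (lower) in controls, against 4.66 (upper) and 7.71 (lower) in mutants. Like the tested members Col12a1, Col1a1, Col1a2, Col3a1, Col5a1, Col8a1, Col8a2 and Col16a1, it was lowest in the control upper and highest in the mutant lower molar. Col6a6, Col7a1 and Col14a1, under the filter, had this order too. The share of all genes with this order was not counted. For Lox, mutant minus control was 0.79 and lower minus upper 0.96 (log2, limma adjusted p = 0.14 and 0.085). Loxl2, a related oxidase, was at 9.59 to 12.4 FPKM and highest in the control lower molar. Of the 5 tested propeptide cleavage genes, 1 was among the 2 lower ones: Pcolce, the enhancer of carboxyl propeptide cleavage, had 29.7 and 31.5 FPKM in controls, against 26.3 and 23.9 FPKM in mutants (limma adjusted p = 0.36). The protease Bmp1 was at 6.66 to 8.69 FPKM. Among collagen receptors, the integrin subunit Itgb1 stayed between 33.1 and 35.0 FPKM. The tyrosine kinase Ddr2 had 14.8 and 15.2 FPKM in controls, against 12.1 and 13.0 FPKM in mutants (limma adjusted p = 0.40).

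Other cell types that a capture could hold were also checked. Osteoblast markers, a lineage that makes much type I collagen, summed to 76.7 (upper) and 65.7 FPKM (lower) in controls, against 46.2 and 41.8 FPKM in mutants. Most of each sum was Runx2 alone, at 62.2 and 48.2 FPKM in controls, against 39.5 and 31.0 FPKM in mutants. Bglap, a marker of mature osteoblasts, was at 0 in all 4 libraries. Between genotypes these sums were higher in controls, while Col1a1 and Col1a2 had higher values in mutants. Between molars the osteoblast marker Alpl had the order of Col1a1, at 4.53 (upper) and 7.13 FPKM (lower) in controls, against 1.99 and 4.99 FPKM in mutants (lower minus upper 0.78, log2, limma adjusted p = 0.086), while Runx2 had lower values in the lower molar. Summed markers lay between 2.35 and 3.02 FPKM for skeletal muscle, 1.27 and 2.33 for Schwann and neural cells, 2.06 and 3.29 for macrophages and 588 and 733 for erythroid cells. The part of these cells in the collagen values was not tested.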

How the data were processed

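The authors deposited 1 table per library with the FPKM, the coverage signal and the length of 28107 RefSeq transcripts, per the file headers. TopHat 1.4.1, Bowtie 0.12.7 and the build mm9 are named in the submitters' processing notes. The strand setting and the handling of reads that align more than once are not given in the sources used here. A NuGEN Ovation kit, which amplifies, was used for cDNA, per the labels' protocols, so reads are not independent molecules.

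FPKM was summed over the transcripts of a symbol. No collagen transcript had a failed estimate. Approximate reads are the deposited coverage times length divided by 44.2 bases, the value of single-read genes, and cover counting error only. FPKM are not counts, so no count test was run. limma 3.58.1 in R 4.3.3 was fitted to log2(FPKM + 1), a pseudocount of 1, of genes whose mean reached 1 FPKM, with genotype and molar as terms, an intensity trend and Benjamini-Hochberg adjustment, two-sided. The test was checked on simulated data whose noise depended only on the level of a gene. That check does not cover spread particular to a gene or between embryos. Older symbols were matched through RefSeq synonyms.

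The members and lists were chosen with earlier results of these data known. Values in every library were to be given for members with a mean of at least 10 FPKM, for members called by limma, and for those 0.58 apart in the same direction in both molars or genotypes. Of each list, called genes, or else the 2 with the highest mean, were to be named. Other genes named were chosen after their values were seen.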

Additional observations from a re-analysis of the deposited data

How the results depend on the processing

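limma called 0 collagen genes for genotype under each of the alternatives run, leave-outs included, and 0 for molar except when genes under a mean of 5 FPKM were left out, where 2 of 14 were called (Col1a1 and Col12a1). The number with an unadjusted p under 0.05 for genotype, 9 as reported, was 4 at a mean of at least 5 FPKM, 4 of 42 without a filter on low values, 3 without a term for the molar, 3 with the transcript of highest FPKM per gene, and 0 to 6 when 1 library was left out. For molar, 11 as reported became 3 to 7 when 1 library was left out. Both reversals were for genotype: Col12a1 ran from -0.082 (without the control upper library) to 1.21, and Col8a1 from -0.029 (without the mutant lower library) to 0.995, when 1 library was left out. These leave-out fits have no molar term, so the molar difference enters their genotype value. Within each molar the mutant was higher, by 0.99 (upper) and 0.14 (lower) for Col12a1 and by 0.18 and 0.78 for Col8a1. Genes at least 2-fold apart became 1 instead of 0 for genotype in the upper molar with a pseudocount of 0.1, 1 instead of 2 for molar in controls with the transcript of highest FPKM, and 2 instead of 1 for molar in mutants without a filter.

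Without a filter on low values several class medians moved. For genotype in the upper molar they became -0.0076 for fibrillar, 0.00 for network and -0.0016 for other genes. In the lower molar they became 0.028 for all members, 0.054 for fibrillar and 0.013 for network genes. For molar they became 0.22 for fibrillar genes in controls, 0.13 for all members in mutants and 0.29 for fibrillar genes in mutants. Rescaling by median ratios gave 0.19 for network genes (genotype, lower molar) and 0.45 for fibrillar genes (molar, mutants). A pseudocount of 0.1 gave 0.23 for network genes (genotype, upper molar). The transcript of highest FPKM gave 0.10 for all members (genotype, upper molar) and 0.19 for fibrillar genes (molar, controls). The cause of these moves was not tested. No analysis of replicate pairs was possible, because the pairs were pooled for RNA and no group has replicate libraries. At this depth 3 reads on a transcript of 5 kb are 0.0404 to 0.0460 FPKM, so members near that level cannot be ranked.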

Other observations

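Another collagen is listed under an older symbol. Emid2 is a RefSeq synonym of Col26a1, the gene of type XXVI collagen, and does not match the pattern of symbols that chose the members. It was picked out after its values were seen. Emid2 (chromosome 5, 137217634 to 137358977, mm9) had 80.2 FPKM (upper) and 67.4 (lower) in controls, against 84.4 (upper) and 46.4 (lower) in mutants. By mean FPKM its rank among the collagens would be 4, after Col1a1, Col1a2 and Col3a1. Both lower molars were below both upper molars, opposite to Col1a1 and Col3a1, with a difference of -0.55 ± 0.15 (log2, SE, limma adjusted p = 0.27). The mutant minus control difference was 0.07 (upper molar) and -0.53 (lower molar), and whether these differ was not tested.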
